A study of Mus musculus with 10 samples.

Results

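A set of 10 genes that mark the mural cells of brain vessels was followed in the brain RNA-seq of Slc20a2-HO mice. The 6 pericyte genes were Rgs5, Abcc9, Anpep, Vtn, Notch3 and Higd1b, and the 4 smooth muscle genes were Acta2, Tagln, Myh11 and Myl9. They were taken by symbol from the 54532 genes of the count table, and 9 of the 10 passed the filter on low counts, Tagln being the exception. The list was selected on cell class after the difference of Rgs5 between the treatments in these libraries was known. Differences between FTY720 and placebo are therefore given as a description, and counts past a threshold in that comparison support nothing about the members.

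All 10 mice were homozygous knockouts of Slc20a2, a phosphate transporter gene whose loss causes calcification along brain vessels. FTY720, a modulator of sphingosine-1-phosphate receptors, was given to 6 mice at 0.5 mg/kg in DMSO, and the placebo group of 4 mice received DMSO alone. Treatment began at 1.5 months of age and lasted 12 weeks, after which a part of each brain gave 1 library. The allele was Slc20a2 tm1a(EUCOMM)Wtsi in all mice and wild-type brains were not analysed here, so values describe knockout brains under both injections. Each library is a mixture of brain cells, and fewer cells of a type and less RNA per cell cannot be told apart in it.

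The names of the mice, such as F1-622 or P3-904, carry a digit of 1 or 3 after the group letter, and the sources used here do not say what it stands for. The digit 3 was borne by 3 FTY720 and 3 placebo mice, and the digit 1 by 3 FTY720 mice and 1 placebo mouse, P1-623. Gabra6, a GABA receptor subunit gene of cerebellar granule cells, ranged over 0.059 to 0.24 CPM (counts scaled to library size) in the digit 1 mice, against 130 to 172 CPM in the digit 3 mice. The targeted gene Slc20a2 was still counted in every mouse, at 6.31 to 9.43 CPM in digit 1 mice and 11.5 to 17 CPM in digit 3 mice, in a count of the whole gene that does not resolve exons. Totals ran from 14772745 to 18303981 counts per mouse.

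Pericytes are embedded in the basement membrane of capillaries, where they support the blood-brain barrier, and smooth muscle cells form the contractile coat of arterioles and arteries. Endothelial PDGF-B and Notch ligands recruit and maintain both, through receptors on the mural cells. Contractile genes of smooth muscle are driven by serum response factor and its cofactors, which bind a DNA element called the CArG box. Pericytes of brain capillaries carry little of this contractile program.

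RefSeq promoter windows (GRCm38.p6, 250 bases before the start) were found for 7 of the 10 genes. The windows of Rgs5, Vtn and Myl9 are shown because these genes carried the differences described here, cut back where an annotated exon of GENCODE M21 begins earlier. Capitals mark matches to the CArG box, either exact or with a G or C at 1 of its central A/T positions. The CArG box reads the same on both strands, and the exact form and the form with 1 departure do not overlap as definitions. The windows were chr1:169655251-169655500 on the plus strand for Rgs5, chr11:78498870-78499090 on the plus strand for Vtn and chr2:156775214-156775419 on the plus strand for Myl9.
Rgs5: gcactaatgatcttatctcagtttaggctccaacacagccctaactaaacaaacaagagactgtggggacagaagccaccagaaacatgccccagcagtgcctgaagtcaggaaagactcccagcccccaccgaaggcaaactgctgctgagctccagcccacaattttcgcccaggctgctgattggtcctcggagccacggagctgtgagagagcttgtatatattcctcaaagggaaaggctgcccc
Vtn: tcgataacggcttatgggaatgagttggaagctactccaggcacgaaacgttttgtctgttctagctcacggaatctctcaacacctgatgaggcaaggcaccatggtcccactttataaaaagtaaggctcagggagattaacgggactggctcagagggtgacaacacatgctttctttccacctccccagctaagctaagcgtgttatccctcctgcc
Myl9: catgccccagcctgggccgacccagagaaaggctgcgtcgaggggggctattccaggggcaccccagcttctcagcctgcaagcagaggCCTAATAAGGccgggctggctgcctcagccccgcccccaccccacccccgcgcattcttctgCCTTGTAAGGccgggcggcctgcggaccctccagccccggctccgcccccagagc

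The exact CArG box of Myl9, CCTAATAAGG, began 161 bases before the RefSeq start, and its second match, CCTTGTAAGG, had 1 departure. Acta2, whose window overlaps an annotated first exon and is not shown, held CCCTATATGG and CCTTGTTTGG, each with 1 departure. The exact form stood in 1.47% of the 32851 RefSeq promoters of that length and the form with 1 departure in 7.24%. None of the windows of the pericyte genes Rgs5, Abcc9, Anpep, Vtn and Notch3 held either form. GGAATG, the core of the TEAD motif, was searched on both strands and found in the windows of Abcc9, Vtn and Acta2, and in 12.6% of all promoters. GTGGGAA, the core of the RBPJ motif through which Notch receptors act, was found on neither strand in the windows of these genes and in 5.42% of all promoters.

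Levels per length, in FPKM as deposited, set the pericyte genes Vtn and Rgs5 above the rest. Vtn, which encodes the adhesive glycoprotein vitronectin, had a median of 27.1 FPKM over the 10 mice (19.8 to 38.9), and Rgs5, a brake on G protein signaling that is a standard marker of pericytes, had one of 14.3 FPKM (10.2 to 21.7). The smooth muscle genes Myl9, the regulatory light chain of smooth muscle myosin, and Acta2, smooth muscle actin, followed at 6.2 FPKM (3.55 to 9.54) and 2.88 FPKM (2.38 to 4.34). Notch3, the Notch receptor of mural cells, lay at 1.93 FPKM (1.27 to 2.63) and Higd1b, a small protein of the hypoxia-inducible domain family, at 1.44 FPKM (0.842 to 3.18). Abcc9, the sulfonylurea receptor subunit of pericyte potassium channels, was at 0.972 FPKM and Anpep, aminopeptidase N or CD13, at 0.909 FPKM. Myh11, the smooth muscle myosin heavy chain, was at 0.504 FPKM (0.241 to 0.641). Tagln, the actin-binding protein transgelin, came last at 0.0933 FPKM (0.0536 to 0.299). Neighbours in this order overlapped between mice except at Rgs5 over Myl9 and at Anpep over Myh11.

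**Figure D1:**
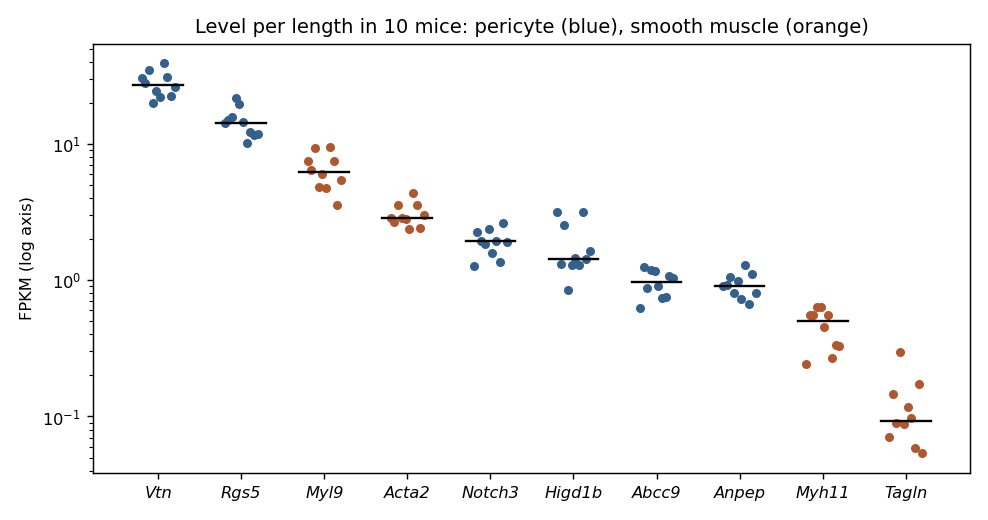
Deposited FPKM of the 10 genes on a log axis, ordered by median; each point is 1 mouse, the bar is the median over 10 mice, and pericyte genes are blue and smooth muscle genes orange. Vtn and Rgs5 lie highest, at medians of 27.1 and 14.3 FPKM, and Tagln lowest at 0.0933 FPKM.

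Depth behind the genes was uneven. Rgs5 had 720 to 1657 counts per mouse and Vtn 675 to 1225, whereas Notch3 had 145 to 369, Abcc9 75 to 181, Myl9 72 to 184, Acta2 72 to 120, Anpep 47 to 83, Myh11 26 to 84 and Higd1b 12 to 46. Tagln had 2 to 10 counts, and Cnn1, another contractile marker, 2 to 14. Myocd, the smooth muscle cofactor of serum response factor, had 0 to 5 and Actg2 0 to 2. The smooth muscle class thus rests on Acta2, Myl9 and Myh11, and of these Myh11 had the fewest reads. For Tagln, 62.4% of the exonic bases lie under an antisense gene, Gm48529, and without strand information the reads of both cannot be told apart. Antisense overlap was 6% of exonic bases for Notch3 and 1.9% for Abcc9. Acta2 shared 81.5% to 85.4% of its coding bases with the 5 other actin genes and Myl9 86.4% with Myl12b and 85.7% with Myl12a. Only 0.326% of the 50-base stretches of Acta2 and 0% of those of Myl9 occurred in another gene.

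Rgs5 was the member that stood higher with FTY720. It was at 64.9, 68.3 and 72.1 CPM in F1-622, F1-624 and F1-918 and at 98.8, 89.9 and 66.3 CPM in F3-609, F3-612 and F3-908. In the placebo mice it was at 47.2 CPM in P1-623 and at 56.1, 53.1 and 54.8 CPM in P3-612, P3-904 and P3-907. All 6 FTY720 mice lay above all 4 placebo mice, whose values spread little (mean 52.8 ± 3.95 CPM, SD, n = 4). The log2 fold change came to 0.54 (standard error 0.14), to 0.60 (0.11) once the digit entered the model and to 0.64 (0.15) within the digit 3. Over all genes tested the groups did not overlap for 0.804%, and Rgs5 was the only one of the 9 members for which they did not.

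Among the other pericyte genes no common direction was seen. Abcc9 was at 5.32 to 10.7 CPM with FTY720 and 6.29 to 9.01 CPM with placebo, 0.15 higher on the log2 scale (standard error 0.21). Anpep, Vtn, Notch3 and Higd1b gave log2 fold changes of -0.11 (0.21), -0.17 (0.18), -0.07 (0.20) and -0.11 (0.40). Vtn was at 40.2 to 71.2 CPM with FTY720 and 46 to 80.3 CPM with placebo, and with the digit as a covariate its log2 fold change was -0.29 (0.11). Without P1-623 the value of Vtn in the model without the digit was -0.0035. The groups overlapped for each of these genes.

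**Figure D2:**
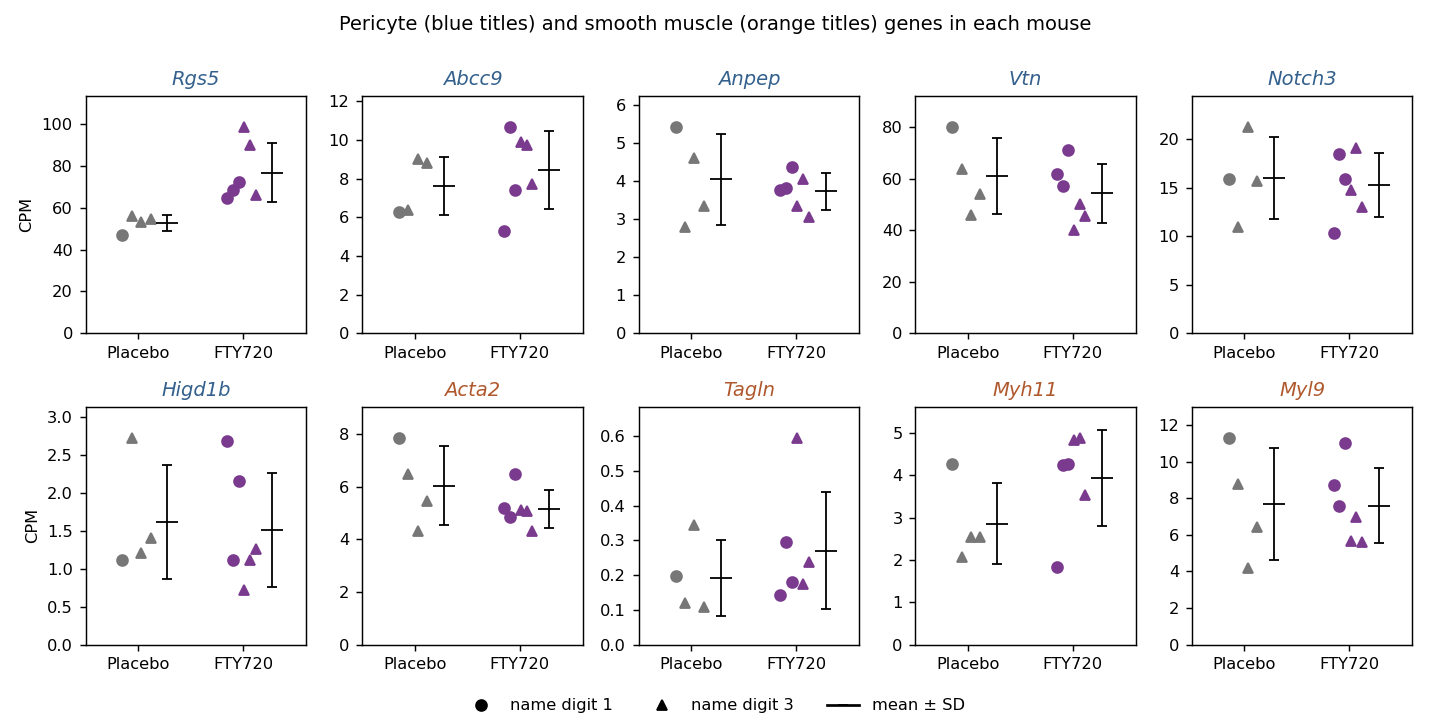
CPM of each gene in each mouse by treatment; circles are mice with the name digit 1, triangles those with the digit 3, the horizontal bar and whiskers are the mean ± SD of 6 FTY720 or 4 placebo mice, and every axis starts at 0. The FTY720 mice lie above all placebo mice for Rgs5 at 64.9 to 98.8 against 47.2 to 56.1 CPM, while the groups overlap for the other 9 genes.

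Of the smooth muscle genes tested, Myh11 had the largest log2 fold change between the treatments, 0.47 (standard error 0.29). It was at 1.84, 4.24 and 4.26 CPM in the FTY720 mice F1-622, F1-624 and F1-918 and at 4.83, 4.89 and 3.53 CPM in F3-609, F3-612 and F3-908. The placebo mouse P1-623 had 4.26 CPM and P3-612, P3-904 and P3-907 had 2.08, 2.54 and 2.55 CPM. Within the digit 3 the 3 FTY720 mice thus lay above the 3 placebo mice, a log2 fold change of 0.89 (0.23), and groups this small did not overlap for 12.9% of all genes. Within the digit 1 the order was not the same, since F1-622 was lowest and P1-623 level with F1-624 and F1-918. Leaving out F1-622 gave 0.62 and leaving out P1-623 gave 0.73, whereas leaving out P3-612 gave 0.34, and deposited FPKM with a pseudocount of 1 gave 0.14. Acta2 was at 4.3 to 6.48 CPM with FTY720 and 4.33 to 7.86 CPM with placebo, a log2 fold change of -0.22 (0.19) that became -0.07 without P1-623, and Myl9 had one of -0.01 (0.27). Tagln, untested, was at 0.142 to 0.596 CPM with FTY720 and 0.108 to 0.346 CPM with placebo.

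At the threshold the study used, an unadjusted p of 0.05, 1 of the 9 genes was counted, against 2.61% of all 17665 genes tested (1.04% higher and 1.57% lower with FTY720). The smallest adjusted p over all of them was 0.99992 in edgeR. With the digit as a covariate 2 of 9 were counted, Rgs5 and Vtn, against 12.8% of all genes, and in the digit 3 mice alone 2 of 9, Rgs5 and Myh11, against 7.27%. Once the trends of each library on length and GC content were removed too, the fit with the digit counted 1 of 9. Over all genes that fit counted 1066, against 2256 without the removal. The log2 fold change of Vtn was -0.10 (standard error 0.08) in it. Median log2 fold changes were -0.09 over the 6 pericyte genes and -0.01 over the 3 smooth muscle genes tested, beside -0.003 over all genes, with 3 of the 9 members higher and 6 lower.

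Other vascular genes were set beside Rgs5. Of 16 further pericyte genes none had an unadjusted p under 0.05 between the treatments in edgeR's test, and 8 of them were higher with FTY720. The PDGF-B receptor gene Pdgfrb averaged 21.6 ± 3.56 CPM under FTY720 (SD, n = 6) and 20.3 ± 3.02 CPM under placebo (SD, n = 4). Of 18 further smooth muscle genes tested, 1 passed, Ppp1r14a, an inhibitor of myosin phosphatase that oligodendrocytes also express, at -0.71 on the log2 scale (standard error 0.26). Of 22 genes of the PDGF-B, Notch, TGF-beta, angiopoietin and serum response factor pathways none had an unadjusted p under 0.05. Once the digit entered the model, where 12.8% of all genes passed, the counts were 1 lower of the 16 pericyte genes, 2 lower of the 18 smooth muscle genes and 3 higher of the 22 signaling genes (Angpt1 at 0.40, Jag1 at 0.33 and Tek at 0.33). Within the digit 3, 1 of the 16 pericyte genes passed, Pdgfrb at 0.30 (standard error 0.13), against 7.27% of all genes. Of those 16 genes, 10 were higher with FTY720 there. Of 14 endothelial cell genes 11 were higher with FTY720 and 3 lower in the model without the digit. In that model 4 passed, all higher, where 1.04% of all genes were called higher. These 4 were Ly6c1 by 0.46, the adhesion molecule gene Pecam1 by 0.43, and the transporter genes Slco1a4 and Abcb1a by 0.61 and 0.51 on the log2 scale. In the model with the digit 7 passed, all higher, where 880 of 17665 genes were called higher. The summed level of the 14 endothelial genes was 338 to 466 CPM with FTY720 and 315 to 336 CPM with placebo, the lowest FTY720 mouse lying just above the highest placebo mouse, and its part in the difference of Rgs5 was not tested. The 6 oligodendrocyte genes were all lower with FTY720, at a median of -0.24, and summed to 5450 to 6370 CPM against 6240 to 7280 CPM.

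The digit in the name was compared next, with treatment as a covariate. Vtn and Myl9 fell in the mice with the digit 3 relative to the digit 1, and the other 7 genes did not pass an adjusted p of 0.05. Vtn was at 62, 57.2 and 71.2 CPM in F1-622, F1-624 and F1-918 and at 80.3 CPM in P1-623. With the digit 3 it was at 40.2, 50.2 and 45.5 CPM in F3-609, F3-612 and F3-908 and at 63.7, 46 and 54.3 CPM in P3-612, P3-904 and P3-907. Only P3-612 reached into the range of the digit 1 mice. Its log2 fold change of -0.51 (standard error 0.11) had an adjusted p = 0.0062746 in edgeR, and in the FTY720 mice alone, where 17.9% of all genes were called, it was -0.48 (0.14).

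Myl9 was at 8.72, 7.55 and 11 CPM in F1-622, F1-624 and F1-918 and at 11.3 CPM in P1-623. With the digit 3 it was at 5.66, 6.98 and 5.62 CPM in F3-609, F3-612 and F3-908 and at 8.79, 4.16 and 6.45 CPM in P3-612, P3-904 and P3-907. As for Vtn, P3-612 alone reached into the range of the digit 1 mice. Its log2 fold change of -0.66 (standard error 0.20) had an adjusted p = 0.02564 in edgeR. The call was lost without F1-918 (adjusted p = 0.076446 in edgeR), without F3-609 (0.06785) or without P1-623 (0.13862), with log2 fold changes of -0.57, -0.64 and -0.58. It was also lost in the FTY720 mice alone, at -0.58 (standard error 0.21, adjusted p = 0.069586 in edgeR).

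The remaining differences between the digits were smaller than or close to the spread between mice. Rgs5 was 0.28 higher on the log2 scale (standard error 0.11) with an adjusted p = 0.072065 in edgeR, which became 0.37 and passed (adjusted p = 0.013637) without F3-908. Abcc9 was at 0.26 (0.19), Notch3 at 0.05 (0.20), Myh11 at -0.06 (0.28), Acta2 at -0.31 (0.17), Anpep at -0.34 (0.19) and Higd1b at -0.44 (0.41). The 2 of 9 members called, both lower, stood against 28.4% of all genes (13.9% higher and 14.4% lower), and no member's digit groups were without overlap, against 14.2% of all genes. Read against these shares, the count is no result about the members. No member had an interaction of treatment and digit with an adjusted p under 0.05 (0.99994 for all 9 in edgeR's test), and at an unadjusted 0.05 it was 1, Myh11, with a term of 1.18 (standard error 0.52), against 1.95% of all genes. That term rests on P1-623 as the single placebo mouse with the digit 1.

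**Figure D3:**
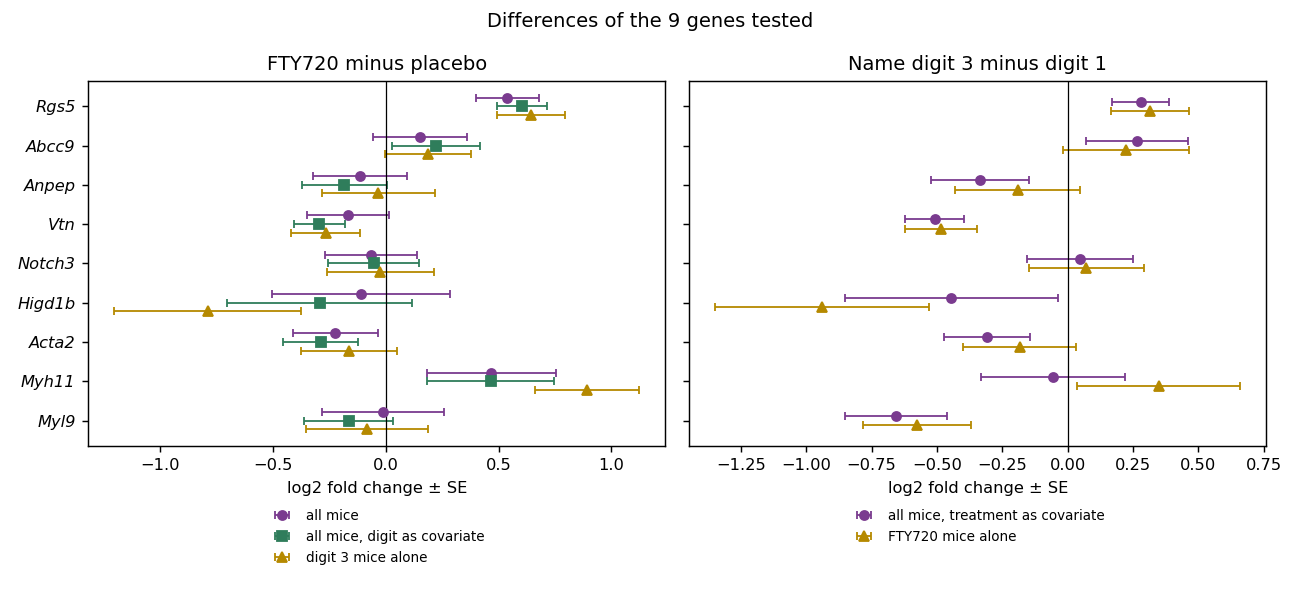
Log2 fold change ± standard error of the 9 genes tested, left for FTY720 over placebo in all mice, in a model that holds the digit and within the digit 3, and right for the digit 3 over the digit 1 in all mice with treatment as a covariate and in the FTY720 mice alone. Rgs5 stays between 0.54 and 0.64 on the left, and Vtn and Myl9 lie at -0.51 and -0.66 on the right.

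Relatives and regulators of the members were compared between the digits at the same threshold, which 28.4% of all genes passed. In this comparison 4 of 16 further pericyte genes were higher with the digit 3 and 1 was lower. Among the higher ones were the adhesion molecule gene Mcam at 0.66, the amino acid transporter gene Slc6a20a at 0.53 and the mural transcription factor gene Tbx18 at 0.77. Kcnj8, the pore subunit that Abcc9 assembles with, was lower at -0.69 (standard error 0.22), whereas Abcc9 itself did not pass. Of 18 further smooth muscle genes tested, Casq2 at 1.89 and Sncg at 0.62 were higher and the tropomyosin gene Tpm1 at -0.44 was lower.

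Of the 22 signaling genes, 2 were higher with the digit 3 and 8 lower. The 4 with the smallest p were Mkl1, a cofactor of serum response factor, at -0.51, Nrarp, a target and regulator of Notch, at -0.88, the Notch ligand gene Jag1 at 0.59 and the serum response factor gene Srf at -0.57. Pdgfb, the gene of PDGF-B, was lower at -0.50 (standard error 0.13) in these mixtures of brain cells. The Notch target genes Hes1, Hey1 and Heyl were lower too, at -0.68, -0.35 and -0.57, while Hey2 at -0.36 and Nrip2 at 0.25 did not pass. The actin and myosin relatives Actg1, Acta1, Actb and Myl6 were lower at -0.50, -0.93, -0.57 and -0.54, while Myl12a and Myl12b, the light chains nearest to Myl9 in sequence, did not pass. Each of these calls had an adjusted p under 0.05 in edgeR's test over all genes. Markers of other cells moved with the digit as well. The 7 granule cell genes summed to 932 to 1090 CPM in digit 3 mice against 114 to 131 CPM in digit 1 mice and the 7 microglia genes to 230 to 315 against 329 to 400 CPM. The forebrain transcription factor genes Emx1 and Lhx2 were lower with the digit 3, at -1.25 and -0.81 on the log2 scale. Their part and that of the other markers in the differences of Vtn, Myl9 and the relatives and regulators named above was not tested.

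Variation from mouse to mouse was compared between the members. After the means of treatment and digit were removed, Pearson's r of log2 CPM over the 10 libraries had a median of 0.05 over the 15 pairs of pericyte genes (-0.70 to 0.86). Over the 3 pairs of smooth muscle genes it was 0.38 (0.12 to 0.91), and over the 18 pairs of a pericyte with a smooth muscle gene 0.19 (-0.78 to 0.94). The highest values joined Vtn with Myl9 (0.94), Acta2 with Myl9 (0.91), Abcc9 with Notch3 (0.86), Anpep with Notch3 (0.77) and Vtn with Acta2 (0.76). Higd1b ran against Myh11 (-0.78) and against Abcc9 (-0.70). The points are the same 10 libraries in each pair, so the values share depth and RNA quality and are a description.

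**Figure D4:**
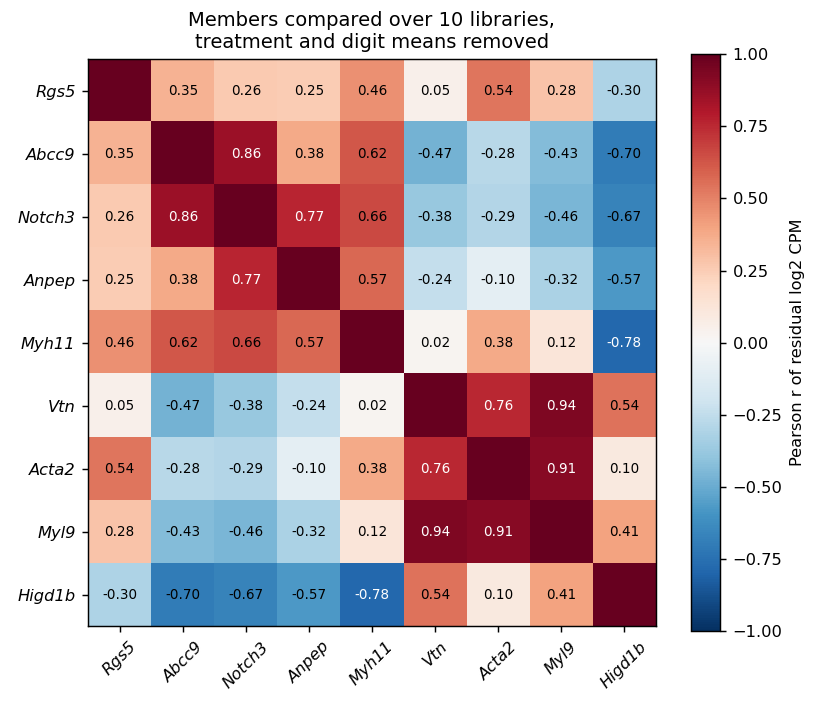
Pearson's r between the 9 genes tested, over 10 libraries, of log2 CPM from which the treatment and digit means were removed; red is positive and blue negative. Vtn, Acta2 and Myl9 form one block (0.76 to 0.94) and Abcc9, Notch3, Anpep and Myh11 another (0.38 to 0.86), and each block holds genes of both cell classes.

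The block of Vtn, Acta2 and Myl9 held shorter genes than that of Abcc9, Notch3, Anpep and Myh11. Rgs5 and Higd1b, at 4546 and 847 bases, lay in neither block. The 5 genes of 4135 to 8373 exonic bases, Anpep, Rgs5, Myh11, Notch3 and Abcc9, had an r of 0.32 to 0.95 with the level of long over short genes in a library, defined as the median deviation of genes of at least 5000 bases minus that of genes under 2000 bases. The 4 genes of 847 to 2030 bases, Higd1b, Myl9, Acta2 and Vtn, had an r of -0.70 to -0.41. That library measure ran from -0.386 in F1-622 to 0.353 in P3-904 on the log2 scale, and its part in the pairs was not tested. Removing trends on GC content and length from each library left the log2 fold change of Rgs5 between treatments at 0.48. It moved that of Rgs5 between the digits from 0.28 to -0.01, that of Vtn from -0.51 to -0.30, which still passed, and that of Myl9 from -0.66 to -0.38 (adjusted p = 0.096239 in edgeR's test), which no longer passed.

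**Figure D5:**
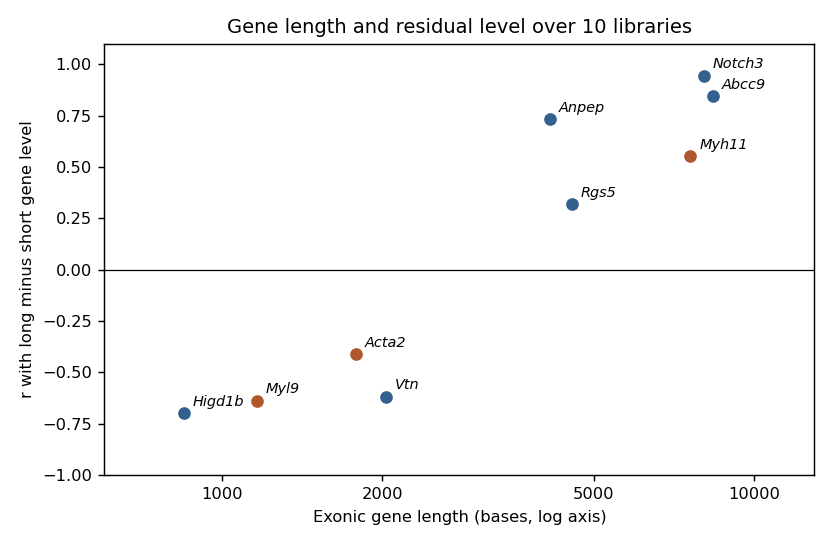
Exonic length of the 9 genes tested (log axis) against Pearson's r, over 10 libraries with treatment and digit means removed, between the gene and the level of long over short genes; blue is pericyte and orange smooth muscle. Genes of 2030 bases or fewer lie at -0.70 to -0.41 and genes of 4135 bases or more at 0.32 to 0.95.

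The protein-coding genes whose residual pattern was most like that of Rgs5, among 14783 compared over the 10 libraries, were Zfp709 (r = 0.98), Drc7 (0.95), Trpc1 (0.93), Gab1 (0.92) and Lrrc75a (0.90). Those most like Acta2 were She (0.94), Kctd14 (0.94), Myl9 (0.91), Akip1 (0.91) and Bcam (0.91). Rgs5 and Acta2 had an r of 0.54 with each other, and no other pericyte or smooth muscle member was among the 5 nearest to Rgs5.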

How the data were processed

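Brain RNA of 10 Slc20a2-HO mice was sequenced as paired-end reads from NEBNext Ultra libraries. The submitters' processing notes name CASAVA 1.8, fastp, HISAT2 2.0.5, featureCounts 1.5.0-p3 and DESeq2 1.20.0 with GRCm38; the strand setting, annotation release and handling of multi-mapping reads are not given in the sources used here. The authors deposited whole-number counts per gene without normalization, and FPKM values, in which the authors divided by gene length and library total. FPKM was used for levels between genes and the counts for all tests.

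The 10 members and the other lists were chosen with earlier results of these data known. Counts were kept by filterByExpr on the treatment design (17665 of 54532 genes), scaled by TMM and fitted by the quasi-likelihood method of edgeR 4.0.16 under R 4.3.3. FTY720 and placebo were compared without a covariate, and the digit 3 against the digit 1 with treatment as a covariate, with an interaction fit beside them. P-values were adjusted by Benjamini-Hochberg over all genes tested. Standard errors were derived from each log2 fold change and its F statistic. Residual correlations used log2 CPM with a prior count of 2. GC content and length were known for 99.9% of the genes tested. Named were all members, the up to 4 genes of each list with the smallest p past the threshold, the 5 genes most like Rgs5 and Acta2, the paralogs of Acta2 and Myl9, Gabra6 and Slc20a2, less a few that are not reported here; Pdgfrb, Cnn1, Myocd, Actg2, Kcnj8, Pdgfb, Angpt1, Jag1, Tek, Hes1, Hey1, Hey2, Heyl, Nrip2 and Myl6 were added after their values were seen.

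All 45 pairs of libraries differed beyond sampling noise (chi-square of at least 16.1 per degree of freedom), so none was counted as a duplicate, and each library is 1 mouse. Alternatives were DESeq2 1.42.0, RLE scaling, other filters, limma 3.58.1 on log2(FPKM + 0.1) and log2(FPKM + 1), the covariates, subsets of mice and each mouse left out; removal of GC content and length trends was added after seeing the data. The pipeline was tested on simulated data. Overlaps and coding identity were taken from GENCODE M21 with Biopython 1.88.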

Additional observations from a re-analysis of the deposited data

Results flagged for a closer look

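In 40 groups of 4 to 6 mice (10 genes, each in both treatment and both digit groups), a sample whose gap to its nearest neighbour was too large for Dixon's 95% limit was found 3 times, and chance marks about 1 in 20 groups. Higd1b in the digit 3 group was highest in P3-612, at 2.73 CPM. Tagln in the FTY720 group was highest in F3-609, at 0.596 CPM, a gene with 2 to 10 counts per mouse. Myh11 in the digit 1 group was lowest in F1-622, at 1.84 CPM.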

How the results depend on the processing

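Vtn kept its lower level with the digit 3, past the threshold, under all 10 alternatives (-0.53 to -0.30, the weakest with trends removed) and 10 omissions (-0.56 to -0.45). The log2 fold change of Rgs5 between the treatments, a value behind the choice of the list, ran from 0.48 to 0.64 over 11 alternatives, with adjusted p from 0.35392 to 0.99991 (edgeR, DESeq2 and limma), and from 0.45 to 0.59 when a mouse was left out. Between the treatments, the number of members past an unadjusted p of 0.05 was 2 once the digit entered the model and 2 within the digit 3, and 1 to 2 when a mouse was left out. Between the digits, the number of members past an adjusted p of 0.05 was 1 in the FTY720 mice alone and 1 with GC content and length trends removed, and 1 to 3 when a mouse was left out. Over all genes, the treatment count ran from 382 to 2256 (281 to 984 with a mouse left out) and the digit count from 3106 to 5716 (2593 to 6046).

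Signs turned for values near 0. Myl9 between treatments was 0.0008 without a filter, 0.0449 and 0.0326 in FPKM with pseudocounts of 0.1 and 1, 0.2042 with trends removed and 0.1148 with trends removed and the digit as a covariate. Notch3 was 0.0536 and 0.0902 in these last fits and Higd1b 0.0135 in the first of them. Between the digits, Myh11 was 0.0121 and 0.0041 in FPKM and 0.3479 in the FTY720 mice alone, and Rgs5 was -0.0052 with trends removed. With a mouse left out, the treatment values ran from -0.25 to 0.063 for Anpep, -0.34 to 0.27 for Higd1b, -0.22 to 0.24 for Myl9 and -0.21 to 0.10 for Notch3, and the digit values from -0.28 to 0.34 for Myh11 and -0.0811 to 0.1637 for Notch3. Except where the alternative itself uses fewer mice, the cause was not tested. No paired analysis was possible because the replicate numbers do not tie FTY720 to placebo mice, and 612 is the single mouse number found in both groups (F3-612 and P3-612). The leading digit of the mouse number, 6 or 9, as a covariate left 1 member counted between the treatments and 2 between the digits. Over all genes, 382 and 4270 were counted in these fits. The low counts of Tagln, Higd1b and Myh11 and 1 placebo mouse with the digit 1 limit precision.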
